A study of Mus musculus with 16 samples.

Results

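The genes described here carry glucose through the heart muscle cell: 2 glucose transporters, the enzymes of glycolysis and of lactate formation, the enzymes that build and break down glycogen, and the receptor pathway through which insulin acts. They were chosen by symbol and function, with earlier results of these data known, and are 32 of the 30153 genes in the table. All 32 passed the filter for testing, 1 TPM or more in 3 hearts or more, Irs1 through Hap-I hearts alone. Their transcripts were measured by RNA sequencing of polyadenylated RNA in 16 mouse hearts. Hap-I mice overexpress the human angiotensin type 1 receptor in its haplotype I form. Western diets hold much fat and sugar. Western-diet aged Hap-I mice gave 5 hearts, aged Hap-I mice with no diet in their label gave 4, western-diet adult Hap-I mice gave 4 and adult C57 mice gave 3. All 4 groups carry the strain label C57/BL6, and the design text counts each library as an animal. For the adult Hap-I mice the sample labels give the western diet and the design text does not; the sample labels were followed, so any comparison with that group is subject to this conflict. The labels used here give no age in months, sex or promoter of the transgene. Genotype, age and diet therefore differ together in most comparisons and cannot be told apart there: by label, only the comparison of aged western-diet with aged Hap-I hearts differs in diet alone, and only that of aged western-diet with adult western-diet Hap-I hearts in age alone. Y-linked transcripts, absent from 3 of 5 aged western-diet and 0 of 4 aged Hap-I hearts, also differ in the comparison of diets.

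In the heart, fatty acids are the main fuel, and glucose and lactate supply most of the rest. Insulin acts through its receptor, the Irs adaptors, a phosphoinositide kinase and Akt to bring the transporter Slc2a4 to the cell surface and to activate glycolysis and glycogen synthesis. Phosphofructokinase is the main control point of glycolysis, and the Pfkfb enzymes make and remove the sugar bisphosphate that activates it. Many of these steps have a muscle-type enzyme and one found in most tissues, each from its own gene.

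Values are TPM, transcript abundances corrected for length, divided by 1 scaling factor for each library and called scaled TPM below. A library held 9553 to 11175 genes at 1 TPM or more. TPM keep no sequencing depth, so the depth is unknown and errors are spreads between hearts. Summed cardiomyocyte markers (7 genes, all detected) were high in every heart, 33929 to 41791 scaled TPM in aged western-diet, 36557 to 46729 in aged and 33064 to 43411 in adult western-diet Hap-I hearts, against 44886 to 49546 in C57 hearts. Summed atrial markers (5 genes) ranged over 85.6 to 198, 96.5 to 5051 and 33.7 to 1166 scaled TPM in the Hap-I groups in the same order, against 229 to 6738 in C57 hearts. These summed levels thus differed between groups. Their part in the results was not tested beyond a refit with the mean of the atrial markers Myl7, Myl4, Sln and Mybphl as a covariate. The cardiomyocyte markers were not used as a covariate. Y-linked transcripts were absent from aged western-diet replicates 1, 2 and 3 and adult western-diet replicates 1 and 2 and present in the other 11 libraries. Library deviations also followed transcript length, with rank correlations from -0.49 to 0.52. They were positive in 3 of 5 aged western-diet, 4 of 4 aged and 1 of 4 adult western-diet Hap-I hearts and in 0 of 3 C57 hearts. In heart tissue, fewer cells of a type and less RNA per cell cannot be told apart.

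The most abundant of the 32 transcripts were of aldolase and of lower glycolysis. Gapdh averaged 1786 ± 192 and Aldoa 1269 ± 124 scaled TPM over the 16 hearts (SD), followed by Eno3 at 807 ± 133 and Pgam2 at 557 ± 82.1. Genes of the insulin pathway were among the least abundant: Irs1 averaged 1.6 ± 0.98, Irs2 1.08 ± 0.311 and Foxo1 2.14 ± 0.266 scaled TPM. In 3 pairs the muscle-type gene was far the higher: Slc2a4 lay 23 to 44.6 times above Slc2a1 within a heart, Eno3 7.26 to 11.6 times above Eno1 and Pgam2 8.14 to 18.8 times above Pgam1. Summed over all 32 genes, the level was 5621 to 6732 scaled TPM in aged western-diet Hap-I hearts, 6275 to 7452 in aged Hap-I hearts, 6545 to 7236 in adult western-diet Hap-I hearts and 7237 to 8228 in C57 hearts. This sum is weighted to the most abundant genes, led by Gapdh and Aldoa, and was not tested. Tpi1, the triose phosphate isomerase, was listed at only 2.75 to 7.98 scaled TPM beside its neighbours in the pathway. Irs1 varied most, with a coefficient of variation of 61.3% over the 16 hearts, then Pfkfb2 at 40.7% and Ldhb at 40.0%, while Aldoa varied least at 9.77%.

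**Figure D1:**
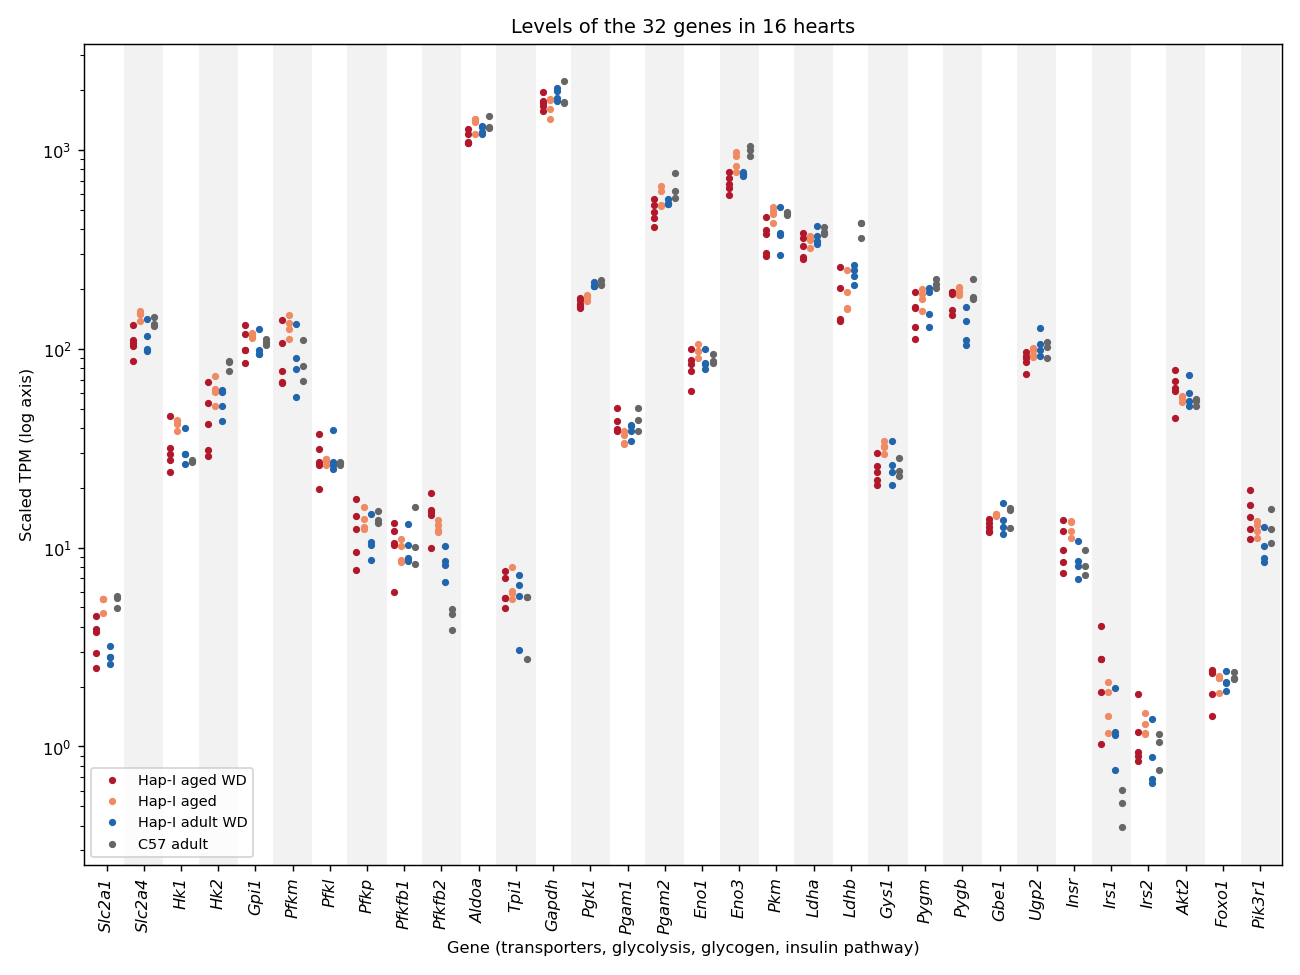
Scaled TPM (log axis) of each of the 32 genes in the 16 hearts, 1 dot per heart, coloured by group. Levels run from 0.392 for Irs1 in a C57 heart to 2212 for Gapdh in another, and for Pfkfb2 and Irs1 the 3 C57 dots lie below all others.

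Of the 32 genes, 11 passed the test in at least 1 of 7 comparisons and 21 in none. The share of all genes passing in at least 1 of the 7 was not counted. This count, and those by pathway step below, are therefore not results about these genes. A gene passed at an adjusted p under 0.05 in a limma model of all genes kept, with p-values adjusted by Benjamini-Hochberg over 11415 genes; fold changes were computed from log2(scaled TPM + 1), which understates those of low genes such as Irs1. Against C57 hearts, 2 genes were higher in aged western-diet Hap-I hearts, beside 12.3% of all genes, and 7 were lower, beside 9.57%; in either direction, 9 of 32 stand beside 21.9% of all genes. In aged Hap-I hearts 3 were higher (7.17% of all genes) and 1 lower (4.06%). In adult western-diet Hap-I hearts 1 was higher (1.95%) and 2 lower (1.5%). When the Hap-I groups were averaged with equal weight, 2 were higher (9.42%) and 5 lower (6.31%). These 4 comparisons share the same 3 C57 hearts, and the genes counted higher in the aged groups and in the mean of the Hap-I groups include Irs1. Between the western-diet groups, 1 gene was higher in aged than in adult Hap-I hearts (1.67% of all genes) and 1 lower (0.718%). In aged against adult western-diet Hap-I hearts 2 were higher (1.25%) and 0 lower (0.885%). Between aged western-diet and aged Hap-I hearts 0 were called, beside 0.166% of all genes.

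The calls against C57 depended on the scaling. Without it, the count in aged western-diet hearts was 2 higher and 1 lower, and with quantile normalization 2 higher and 3 lower. For the mean of the Hap-I groups it was 1 higher and 1 lower without scaling and 2 and 2 with quantile normalization. In aged Hap-I hearts the splits were 1 and 1, and 2 and 1; in adult western-diet hearts, 0 and 1, and 1 and 1. Without scaling the median log2 change of all genes was -0.16 for aged western-diet against aged, 0.11 for aged western-diet against adult western-diet, 0.27 for aged against adult western-diet, 0.13 for aged against C57 and -0.13 for adult western-diet against C57. Scaled, the members' medians in these comparisons were -0.16, -0.04, 0.19, 0.00 and -0.08. For aged western-diet against C57 the members' median was -0.12, beside 0.00 for all genes, and 0.01 with quantile normalization.

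**Figure D2:**
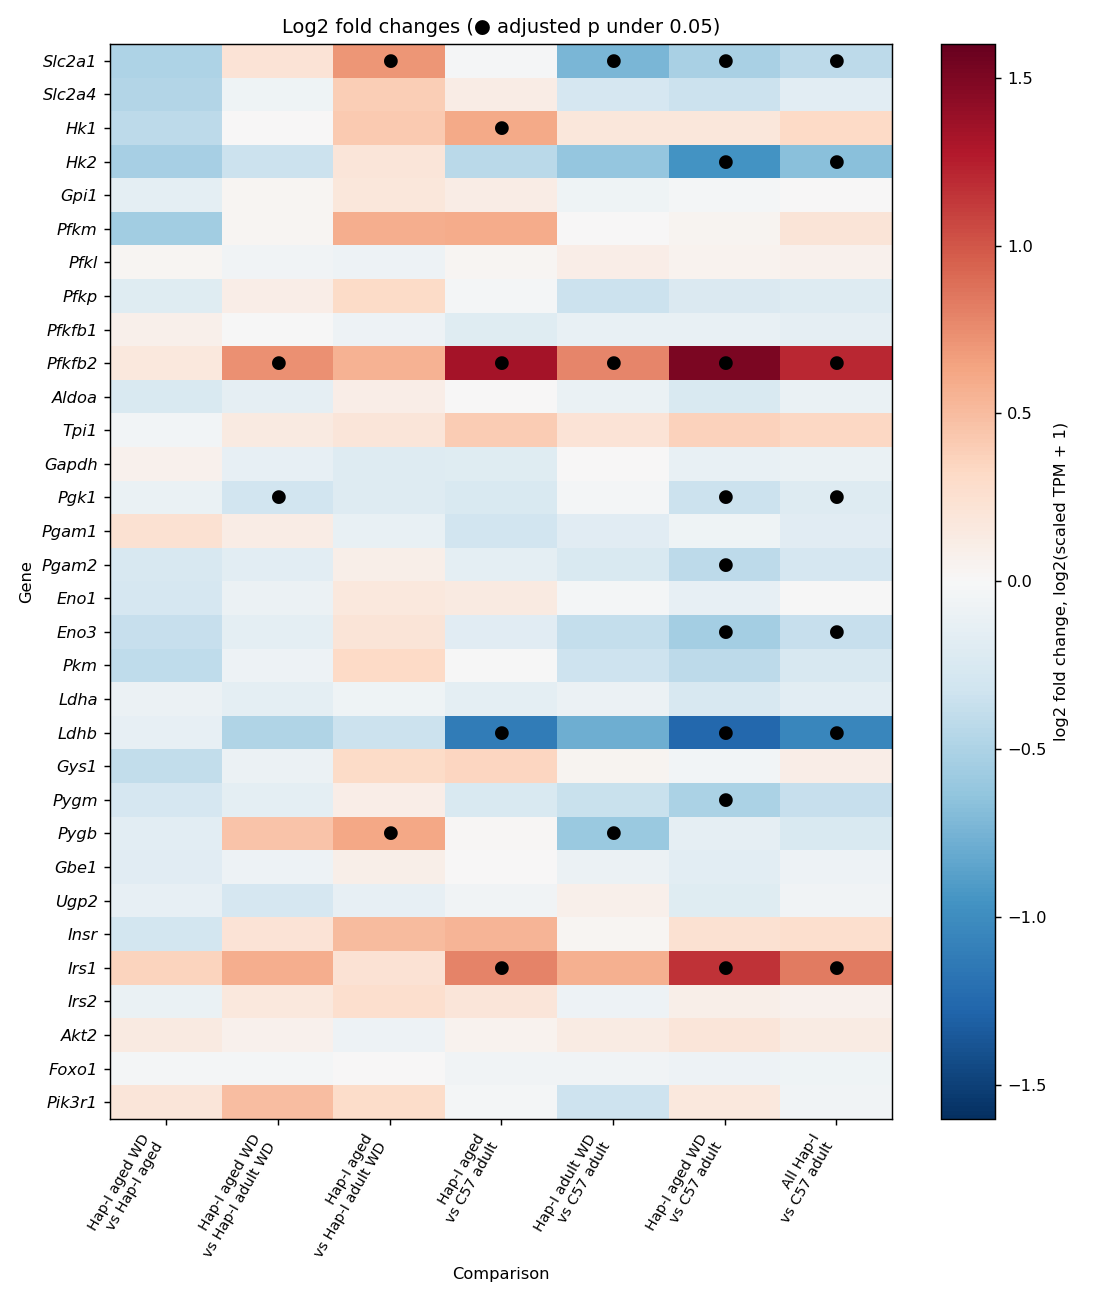
Log2 fold change of each gene (rows) in each comparison (columns), red for higher and blue for lower in the group named first, with a dot where the adjusted p was under 0.05. Pfkfb2 carries 5 dots, the most of any gene, and ranges from 0.17 to 1.51; Ldhb has its lowest value, -1.25, in aged western-diet Hap-I against C57 hearts.

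Pfkfb2, the heart form of the enzyme that makes the activator of phosphofructokinase, showed the largest rise of the 32 genes on the log2(scaled TPM + 1) scale, while the ratio of the aged western-diet to the C57 group mean was 3.31 for Pfkfb2 and 4.91 for Irs1. It lies on chr1:130689182-130729253, minus strand (GRCm38; ENSMUSG00000026409). Its level was 15.5, 15.0, 18.9, 14.6 and 9.95 scaled TPM in the 5 aged western-diet Hap-I hearts, 12.9, 11.9, 12.3 and 13.8 in the 4 aged Hap-I hearts, 6.72, 10.2, 8.53 and 8.19 in the 4 adult western-diet Hap-I hearts, and 4.61, 4.92 and 3.85 in the 3 C57 hearts. Every Hap-I heart lay above every C57 heart, and every aged Hap-I heart without the diet lay above every adult western-diet one. Against C57, Pfkfb2 rose by 1.51 ± 0.15 (log2, SE; adjusted p = 0.000108) in aged western-diet, by 1.34 ± 0.16 (adjusted p = 0.000652) in aged and by 0.78 ± 0.16 (adjusted p = 0.0184) in adult western-diet Hap-I hearts. Between the western-diet groups it was 0.73 ± 0.14 higher in aged hearts (adjusted p = 0.0195). The difference between aged and adult western-diet Hap-I hearts was 0.56 ± 0.15 and did not pass (adjusted p = 0.0632), nor did that between aged western-diet and aged Hap-I hearts, 0.17 with a 95% interval of -0.13 to 0.48. The rises in both aged groups held under every alternative tried. That in adult western-diet hearts was lost without adult western-diet replicate 2 (adjusted p = 0.0536), without C57 replicate 1 (0.0688) or replicate 3 (0.0886), without scaling (0.234), in a fit of the groups compared alone (0.057) and with the Y-linked (0.0728) or atrial covariate (0.082). The difference between the western-diet groups was lost without adult western-diet replicate 1 (0.077) or replicate 3 (0.0531), without scaling (0.129) and in a fit of those groups alone (0.12). Among hearts with Y-linked transcripts, aged western-diet replicates 4 and 5, at 14.6 and 9.95, also lay above the C57 hearts. The part of the Y-linked difference in these changes was not tested beyond the covariate. Of the 31-base words of Pfkfb2 transcripts, the unit by which kallisto assigns reads, 18.9% also occur in other genes, and the main one, Gm29427, was listed at 0.102 to 0.961 TPM before scaling.

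The stretch of 250 bases before the transcript start is shown for the 2 genes that were highest over C57 in Hap-I hearts. It is also shown for 2 of the genes called lower in some comparisons with C57. RefSeq windows (GRCm38.p6) were found for 30 of the 32 genes; Insr and Slc2a4 had none. In capitals is CACGTG, the palindromic E-box bound by clock factors and others of their family. RefSeq gives 3 start windows for Pfkfb2; the 1 with the motif is printed, and the other 2 hold none. There it begins 22 bases before the start, and in Irs1 115 bases before it. Ldhb and Slc2a1 hold none in these bases. Of all 32851 windows, which run from 250 bases before to 50 bases after the start, 7.15% hold CACGTG, and 5 of the 50 windows of these genes do (10%). These belong to Irs1, Irs2, Ldha, Pfkfb2 and Pfkm, of which Irs2, Ldha and Pfkm passed in no comparison. GTAAACA, a forkhead motif searched on both strands, is in 3.65% of all windows and in 0 of the 50. A match is a description of the letters and is no evidence of binding.
Pfkfb2, chr1:130715822-130716071, minus strand: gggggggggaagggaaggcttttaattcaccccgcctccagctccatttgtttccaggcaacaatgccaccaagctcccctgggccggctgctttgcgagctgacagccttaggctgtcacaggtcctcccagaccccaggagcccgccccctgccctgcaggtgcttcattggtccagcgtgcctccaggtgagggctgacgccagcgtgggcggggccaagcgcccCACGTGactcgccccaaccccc
Irs1, chr1:82291440-82291689, minus strand: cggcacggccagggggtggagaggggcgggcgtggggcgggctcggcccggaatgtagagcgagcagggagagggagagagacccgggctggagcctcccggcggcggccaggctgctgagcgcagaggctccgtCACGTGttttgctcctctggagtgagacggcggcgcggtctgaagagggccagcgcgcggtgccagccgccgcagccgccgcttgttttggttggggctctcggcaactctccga
Ldhb, chr6:142507958-142508207, minus strand: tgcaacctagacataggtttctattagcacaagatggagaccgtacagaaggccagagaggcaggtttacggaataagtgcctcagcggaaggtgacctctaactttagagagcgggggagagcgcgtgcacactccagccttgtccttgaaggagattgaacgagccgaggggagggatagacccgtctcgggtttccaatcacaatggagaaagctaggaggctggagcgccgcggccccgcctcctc
Slc2a1, chr4:119108495-119108744, plus strand: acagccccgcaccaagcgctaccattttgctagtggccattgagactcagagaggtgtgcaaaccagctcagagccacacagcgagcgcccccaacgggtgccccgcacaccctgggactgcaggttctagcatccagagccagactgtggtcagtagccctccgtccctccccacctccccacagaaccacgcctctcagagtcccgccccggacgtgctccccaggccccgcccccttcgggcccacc

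The remaining genes of this control point did not pass in any comparison. Pfkm, the muscle phosphofructokinase, had 139, 77.0, 107, 68.1 and 66.9 scaled TPM in aged western-diet Hap-I hearts, 134, 112, 125 and 148 in aged Hap-I hearts, 78.8, 57.1, 90.03 and 133 in adult western-diet Hap-I hearts, and 82.0, 110.4 and 69.0 in C57 hearts. The aged Hap-I hearts were the highest group and lay above all 3 C57 hearts, but the log2 difference of 0.59 did not pass (adjusted p = 0.173). Group means spanned 26.6 to 29.2 scaled TPM for Pfkl, the liver form, and 11.1 to 14.1 for Pfkp, the platelet form. Pfkfb1, the liver and skeletal muscle relative of Pfkfb2, had group means of 9.57 to 11.5 scaled TPM, so that the group means of Pfkfb2 stood above its own in both aged groups and below it in C57 hearts.

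**Figure D3:**
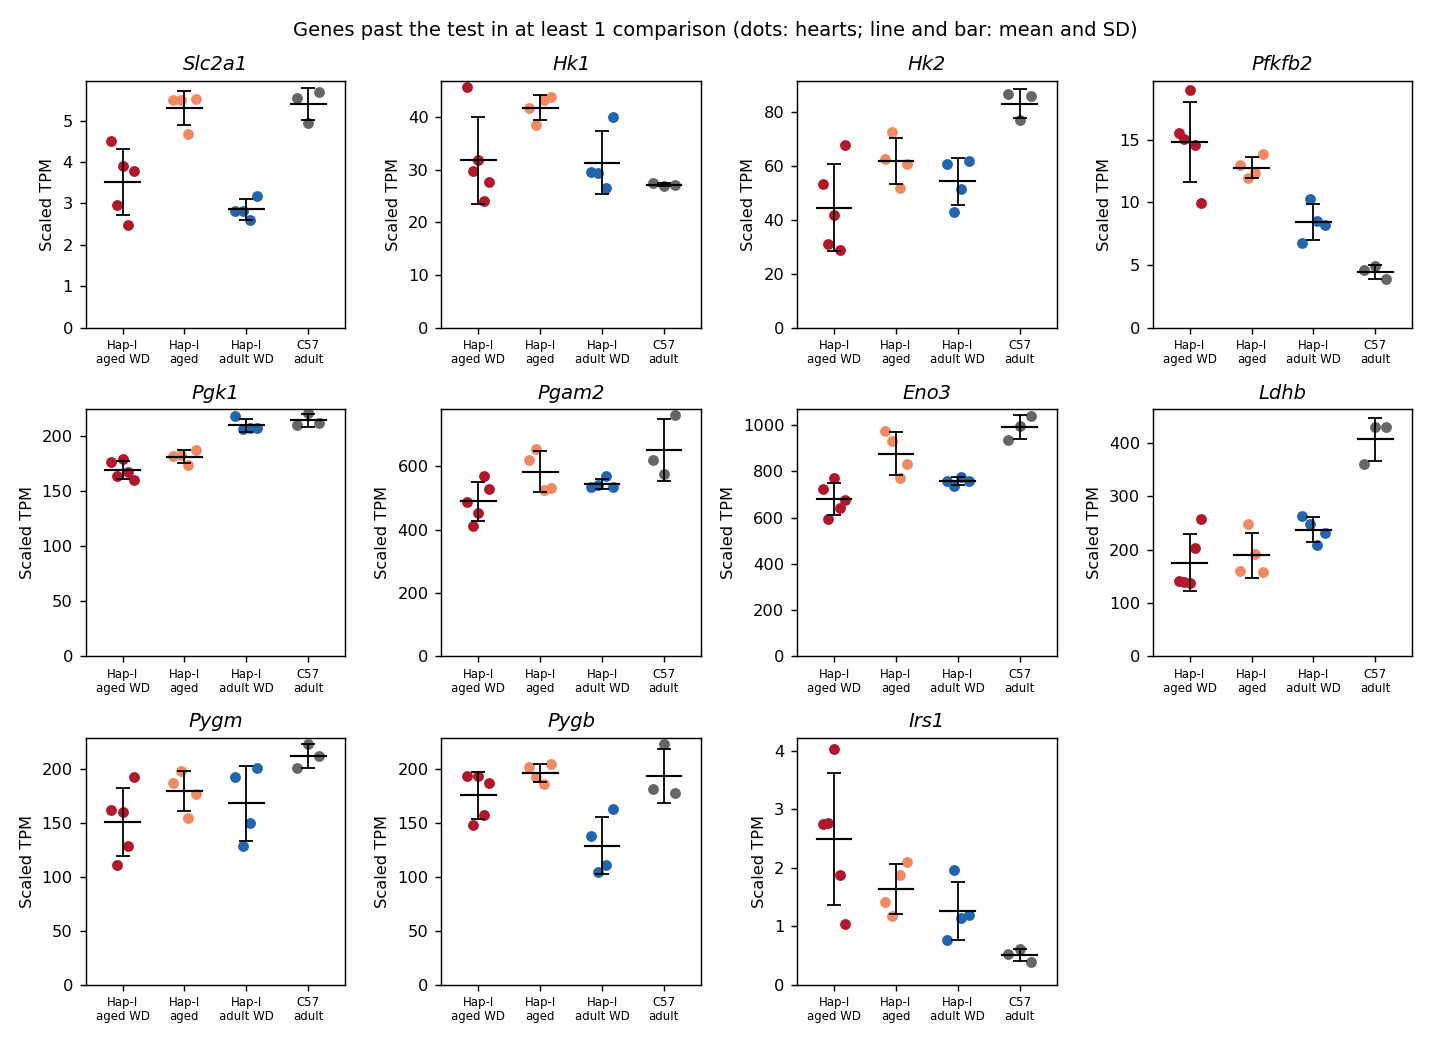
Scaled TPM of the 11 genes that passed in at least 1 comparison, 1 dot per heart, with the mean and SD of each group. Pfkfb2 and Irs1 are highest in aged western-diet Hap-I hearts and lowest in C57 hearts, and Hk2 and Ldhb are highest in C57 hearts.

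Slc2a1, the transporter behind basal glucose uptake (chr4:119108711-119137983, plus strand; ENSMUSG00000028645), passed in comparisons with C57 hearts and between Hap-I groups. It stood at 4.50, 2.96, 3.90, 2.49 and 3.78 scaled TPM in aged western-diet Hap-I hearts, 5.50, 5.50, 4.68 and 5.53 in aged Hap-I hearts, 2.83, 2.83, 2.59 and 3.19 in adult western-diet Hap-I hearts, and 5.56, 4.95 and 5.69 in C57 hearts. All 9 western-diet hearts lay below all 7 hearts without the diet label. Genotype, age and Y-linked transcripts also differ between these hearts, and the cause was not tested. It was 0.71 ± 0.12 higher (log2, SE) in aged than in adult western-diet Hap-I hearts (adjusted p = 0.0104), which held under every alternative. Relative to C57 it fell by 0.73 ± 0.13 in adult western-diet hearts (adjusted p = 0.00752), by 0.52 ± 0.12 in aged western-diet hearts (adjusted p = 0.00884) and by 0.42 ± 0.11 in the mean of the Hap-I groups (adjusted p = 0.0166). Aged Hap-I and C57 hearts differed by -0.02. The aged western-diet hearts were 0.49 ± 0.11 below the aged Hap-I hearts, with no overlap, but this missed the threshold (adjusted p = 0.0621). Without scaling the calls against C57 were lost, at adjusted p of 0.0783 for adult western-diet, 0.156 for aged western-diet and 0.24 for all Hap-I hearts. The call for aged western-diet hearts was also lost in a fit of those groups alone (0.0548) and with the atrial covariate (0.061). That for all Hap-I hearts was lost with the atrial covariate (0.0639) and without C57 replicate 1 (0.0848) or replicate 3 (0.097). Endothelial cells are rich in this transporter, and summed endothelial markers (6 genes, all detected) were 422 to 698 scaled TPM in aged western-diet, 513 to 608 in aged and 593 to 877 in adult western-diet Hap-I hearts, against 746 to 969 in C57 hearts. Most of that sum is Fabp4 (median 506 scaled TPM). In aged against adult western-diet Hap-I hearts 4 of the 6 had a positive log2 change, with a median of 0.27 and 1 called lower; in adult western-diet against C57 hearts 5 of 6 were negative, with a median of -0.46 and 1 called higher. Their part in the result was not tested.

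Slc2a4, the transporter that insulin moves to the surface, passed in no comparison. It had 132, 107, 111, 86.9 and 103 scaled TPM in aged western-diet Hap-I hearts, 149.5, 155, 138 and 150.1 in aged Hap-I hearts, 97.3, 99.4, 116 and 142 in adult western-diet Hap-I hearts, and 133, 144 and 131 in C57 hearts. Every aged western-diet heart lay below every aged Hap-I heart. The log2 difference was -0.46 ± 0.12 (adjusted p = 0.094), and against C57 it was -0.34 (adjusted p = 0.0754).

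The hexokinases trap glucose in the cell by phosphorylating it, Hk2 being the insulin-responsive muscle form and Hk1 the form of most tissues. Hk2 stood at 53.5, 31, 41.7, 29 and 67.7 scaled TPM in aged western-diet Hap-I hearts, 62.8, 72.8, 51.8 and 60.6 in aged Hap-I hearts, 60.8, 43.1, 51.7 and 61.9 in adult western-diet Hap-I hearts, and 86.7, 77.0 and 86.0 in C57 hearts. All 13 Hap-I hearts lay below all 3 C57 hearts. Hk2 fell by 0.96 ± 0.22 in aged western-diet hearts (log2, SE; adjusted p = 0.00771) and by 0.67 ± 0.19 in the mean of the Hap-I groups (adjusted p = 0.0308). In aged Hap-I hearts the difference from C57 was -0.43 (adjusted p = 0.246), and in adult western-diet hearts -0.62 (adjusted p = 0.143). The call for aged western-diet hearts was lost without scaling (0.0641) and with the atrial covariate (0.0636). That for the mean of the groups was lost without C57 replicate 1 (0.123), 2 (0.0584) or 3 (0.128), without scaling (0.172), with quantile normalization (0.114), without a filter (0.066) and with the Y-linked (0.0773) or atrial covariate (0.104).

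Hk1 had 45.8, 29.7, 31.8, 24 and 27.7 scaled TPM in aged western-diet Hap-I hearts, 41.7, 38.5, 43.3 and 43.8 in aged Hap-I hearts, 29.6, 29.4, 26.5 and 40.1 in adult western-diet Hap-I hearts, and 27.6, 26.9 and 27.1 in C57 hearts. The 4 aged Hap-I hearts and 1 heart of each western-diet group were the high ones. Hk1 was 0.60 ± 0.17 higher in aged Hap-I than in C57 hearts (log2, SE; adjusted p = 0.0334). This call was lost when any 1 C57 heart was left out (0.0912, 0.0711 and 0.106 for replicates 1, 2 and 3), without aged replicate 1 (0.0671), 3 (0.0811) or 4 (0.0838), without scaling (0.181), without a filter (0.0645) and with the atrial covariate (0.0552).

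Lower glycolysis turns the split sugar into pyruvate. It is taken here with Gpi1 and Aldoa, which act before it. Of these 10 genes, 3 passed, all of them lower: Pgk1, Pgam2 and Eno3. Each passed in aged western-diet against C57 hearts, where 9.57% of all genes were lower. Pgk1, the phosphoglycerate kinase, had 176, 164, 179, 167 and 159.5 scaled TPM in aged western-diet Hap-I hearts, 181, 183, 174 and 187 in aged Hap-I hearts, 218, 206, 207 and 207 in adult western-diet Hap-I hearts, and 209.8, 221 and 212 in C57 hearts. The 9 aged hearts all lay below the 7 adult ones. Pgk1 fell by 0.34 ± 0.07 in aged western-diet against C57 hearts (log2, SE; adjusted p = 0.00465), by 0.31 ± 0.07 in aged against adult western-diet hearts, both on the diet (adjusted p = 0.0261), and by 0.20 ± 0.06 in all Hap-I against C57 hearts (adjusted p = 0.0387). Reads of Pgk1 are uncertain, since 54.7% of its 31-base words also occur in Pgk1-rs7. That copy was listed, before scaling, at 0.247 to 12.9 TPM in aged western-diet, 3.43 to 12.4 in aged and 0.125 to 2.31 in adult western-diet Hap-I hearts, against 0.134 to 1.56 in C57 hearts.

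The Pgk1 calls were sensitive to the fit. The first was lost without scaling (adjusted p = 0.234), with quantile normalization (0.448) and with a length correction (0.0574). The second was lost without adult western-diet replicate 1 (0.101) or 3 (0.0712), without scaling (0.778), with quantile normalization (0.285), in a fit of those groups alone (0.161), with the atrial covariate (0.0541) and with a length correction (0.161). The third was lost without C57 replicate 1 (0.111), 2 (0.127) or 3 (0.123), without aged replicate 1 (0.0595), 2 (0.0507), 3 (0.0579) or 4 (0.0544), without adult western-diet replicate 3 (0.0594), without scaling (0.495), with quantile normalization (0.878), with the Y-linked (0.0537) or atrial covariate (0.103) and with a length correction (0.267).

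Eno3, the muscle enolase, had 723, 592, 772, 641 and 674 scaled TPM in aged western-diet Hap-I hearts, 973, 932, 769.6 and 833 in aged Hap-I hearts, 759.7, 737, 777 and 758 in adult western-diet Hap-I hearts, and 936, 999 and 1042 in C57 hearts. Both western-diet groups lay wholly below the C57 hearts, and the aged Hap-I hearts overlapped them. Eno3 fell by 0.55 ± 0.11 in aged western-diet hearts (log2, SE; adjusted p = 0.00285) and by 0.37 ± 0.09 in all Hap-I hearts (adjusted p = 0.0146). It was 0.37 ± 0.10 below aged Hap-I hearts in aged western-diet ones, which did not pass (adjusted p = 0.0986). The call for aged western-diet against C57 hearts was lost without scaling (0.0927) and with quantile normalization (0.37). That for all Hap-I hearts was lost without C57 replicate 3 (0.0962), without scaling (0.234), with quantile normalization (0.616), with the atrial covariate (0.0509) and with a length correction (0.1).

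Pgam2, the muscle phosphoglycerate mutase, had 489, 411, 452, 568 and 527 scaled TPM in aged western-diet Hap-I hearts, 621, 654, 524 and 531 in aged Hap-I hearts, 536, 541, 568 and 535 in adult western-diet Hap-I hearts, and 619, 576 and 762 in C57 hearts. The aged western-diet hearts all lay below the C57 hearts, the closest at 568 against 576. The fall of 0.41 ± 0.12 (log2, SE; adjusted p = 0.0272) was lost without C57 replicate 1 (0.0632) or 3 (0.155), without aged western-diet replicate 2 (0.0563) or 3 (0.0575), and under 6 other alternatives, with adjusted p up to 0.477 under quantile normalization. Eno3 and Pgam2 share no 31-base word with another gene of the annotation used here. The annotation behind the deposited values is not given.

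Gpi1, Aldoa and the remaining genes of lower glycolysis passed nowhere. Aldoa, the muscle aldolase, ranged over 1079 to 1269.9, 1202 to 1435 and 1204 to 1315 scaled TPM in aged western-diet, aged and adult western-diet Hap-I hearts, against 1285 to 1485 in C57 hearts. Gapdh, the dehydrogenase that follows, ranged over 1568 to 1964, 1429.6 to 1796 and 1755 to 2044, against 1728 to 2212. Pkm, the pyruvate kinase that ends the pathway, ranged over 294 to 457, 429.7 to 516 and 295 to 518, against 473 to 487. The low Pkm values were thus in western-diet hearts, but adult western-diet replicate 4, at 518, was the highest of all 16. That library was also the one with the highest Gpi1, Pfkl and Gys1 of its group and the only one of the group with a positive length correlation. Group means spanned 104 to 117 scaled TPM for Gpi1, the isomerase after hexokinase, 4.69 to 6.36 for Tpi1, 35.5 to 44.2 for Pgam1 and 81.9 to 97.6 for Eno1.

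Ldhb encodes the heart-type subunit of lactate dehydrogenase, with which lactate is readily oxidised to pyruvate, and Ldha the muscle-type subunit. Ldhb (chr6:142490249-142507957, minus strand; ENSMUSG00000030246) showed the largest fall of the 32 genes. It had 141, 139, 138, 202 and 258 scaled TPM in aged western-diet Hap-I hearts, 159.6, 249, 192 and 159 in aged Hap-I hearts, 263, 248, 208 and 231 in adult western-diet Hap-I hearts, and 361, 431 and 429.8 in C57 hearts. All 13 Hap-I hearts lay below the lowest C57 heart. Ldhb fell by 1.25 ± 0.20 in aged western-diet (log2, SE; adjusted p = 0.000872), by 1.12 ± 0.21 in aged (adjusted p = 0.00584) and by 1.05 ± 0.18 in all Hap-I hearts (adjusted p = 0.00193), each held under every alternative tried. In adult western-diet hearts the difference of -0.78 ± 0.21 missed the threshold (adjusted p = 0.0538), without overlap. Within aged western-diet hearts, the 3 without Y-linked transcripts had 138 to 141 scaled TPM and the 2 with them 202 and 258, all below C57. Within adult western-diet hearts the order was the opposite, 263 and 248 without Y-linked transcripts and 208 and 231 with them. The part of the Y-linked difference in the falls was not tested beyond the Y-linked covariate. Of the words of Ldhb, 33.0% also occur in Gm5514, which was listed at 0.0452 to 0.548 TPM before scaling.

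Ldha passed in no comparison. It had 384, 329, 360.3, 288 and 284 scaled TPM in aged western-diet Hap-I hearts, 354, 367, 322 and 355 in aged Hap-I hearts, 337, 413, 348 and 369 in adult western-diet Hap-I hearts, and 387, 410.0 and 376 in C57 hearts. The log2 difference from C57 was at most 0.26 in size in any Hap-I group, -0.26 in aged western-diet hearts (adjusted p = 0.109).

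Of the 5 glycogen genes, the 2 phosphorylases, which release glucose from glycogen, were called, in different comparisons, and the 3 genes of synthesis were not. Pygb was called in 2 comparisons, where 1.25% of all genes were higher and 1.5% lower, and Pygm in 1, where 9.57% were lower. These calls were lost under many alternatives, so the split is no result about glycogen breakdown against synthesis. Pygb, the brain-type phosphorylase, which heart also expresses, had 194, 148, 194, 157 and 188 scaled TPM in aged western-diet Hap-I hearts, 202, 193, 186 and 205 in aged Hap-I hearts, 138, 105, 111 and 163 in adult western-diet Hap-I hearts, and 181, 223 and 178 in C57 hearts. The adult western-diet hearts were the low group and lay below all aged Hap-I and all C57 hearts. Pygb was 0.62 ± 0.14 higher in aged than in adult western-diet Hap-I hearts (log2, SE; adjusted p = 0.0308) and fell by 0.60 ± 0.15 in adult western-diet against C57 hearts (adjusted p = 0.0387). Neither call was firm. The first was lost without aged replicate 1 (0.0819), 2 (0.0633), 3 (0.0762) or 4 (0.101), without adult western-diet replicate 1 (0.0652), 2 (0.0965) or 3 (0.0902) and under 4 other alternatives (0.0518 to 0.0992). The second was lost without C57 replicate 1 (0.0955), 2 (0.103) or 3 (0.0833), without adult western-diet replicate 2 (0.099) or 3 (0.107) and under 6 other alternatives (0.0656 to 0.174).

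Pygm, the muscle phosphorylase, had 163, 111, 160.1, 129 and 193 scaled TPM in aged western-diet Hap-I hearts, 188, 199, 155 and 177 in aged Hap-I hearts, 193, 129, 150.0 and 202 in adult western-diet Hap-I hearts, and 201, 224 and 212 in C57 hearts. It fell by 0.51 ± 0.17 in aged western-diet against C57 hearts (log2, SE; adjusted p = 0.0438). The call was lost without C57 replicate 1 (0.0883), 2 (0.117) or 3 (0.111), without aged western-diet replicate 2 (0.0865), 3 (0.0586) or 4 (0.0774) and under 7 other alternatives (0.0646 to 0.359). On the side of synthesis, group means spanned 24.4 to 32.1 scaled TPM for Gys1, the muscle glycogen synthase, 12.8 to 14.6 for Gbe1, the branching enzyme, and 87.5 to 106 for Ugp2, which makes the activated glucose that the synthase uses. Gys1 was highest in aged Hap-I hearts, at 34.3, 32.1, 29.6 and 32.5, and had 24.4, 28.1 and 23 in C57 hearts, a log2 difference of 0.34 that did not pass (adjusted p = 0.146).

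In the insulin pathway 1 of 6 genes passed. Irs1, an adaptor that the receptor phosphorylates (chr1:82233101-82291416, minus strand; ENSMUSG00000055980), had 2.75, 2.77, 4.04, 1.87 and 1.03 scaled TPM in aged western-diet Hap-I hearts, 1.42, 1.17, 1.88 and 2.10 in aged Hap-I hearts, 0.761, 1.96, 1.15 and 1.18 in adult western-diet Hap-I hearts, and 0.522, 0.607 and 0.392 in C57 hearts. All 13 Hap-I hearts lay above all C57 hearts. Before scaling, the C57 hearts had 0.404 to 0.582 TPM, under the filter of 1 TPM, so Irs1 entered the test through the Hap-I hearts, where it is high, and its calls against C57 are to be read with that limit. Irs1 rose by 1.15 ± 0.23 in aged western-diet (log2, SE; adjusted p = 0.00375), by 0.80 ± 0.24 in aged (adjusted p = 0.0458) and by 0.84 ± 0.20 in all Hap-I hearts (adjusted p = 0.0129); in adult western-diet hearts the difference was 0.56 (adjusted p = 0.204). Over the alternatives the change ran from 0.87 to 1.98 in aged western-diet and from 0.52 to 1.5 in aged Hap-I hearts, and a filter at 5 TPM removed the gene. Of the words of Irs1, 30.6% also occur in Gm9747, which was listed before scaling at 3.02 to 7.18 TPM in aged western-diet, 4.82 to 7.40 in aged and 4.30 to 7.20 in adult western-diet Hap-I hearts, against 5.25 to 5.76 in C57 hearts. The division of reads between these genes is therefore uncertain. The call for aged western-diet hearts was lost with the atrial covariate (0.0624). That for all Hap-I hearts was lost with that covariate (0.0878), without scaling (0.0644) and without C57 replicate 1 (0.0621) or 3 (0.0823). The call for aged Hap-I hearts was lost without C57 replicate 1 (0.115), 2 (0.0717) or 3 (0.153), without aged replicate 1 (0.0725), 3 (0.11) or 4 (0.123) and under 5 other alternatives (0.0932 to 0.195).

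The receptor itself, Insr, had group means of 10.3, 12.6 and 8.61 scaled TPM in aged western-diet, aged and adult western-diet Hap-I hearts, against 8.37 in C57 hearts. The 4 aged Hap-I hearts, at 11.2 to 13.5, lay above the 3 C57 hearts, at 7.32 to 9.76, and the log2 difference of 0.54 missed the threshold (adjusted p = 0.0587). Akt2, the kinase that carries the signal to Slc2a4, had group means of 54.2 to 63.3 scaled TPM and Pik3r1, the regulatory subunit of the phosphoinositide kinase, of 10.1 to 14.7. Irs2, the second adaptor, spanned 0.898 to 1.27 and Foxo1, the transcription factor that Akt keeps out of the nucleus, 2.09 to 2.25.

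In aged western-diet against aged Hap-I hearts, which by label differ in diet, 12 of the 32 genes had an unadjusted p under 0.05, beside 15.9% of all genes. Of the 32, 24 had a negative and 8 a positive log2 change, and none passed the adjusted threshold in limma; Slc2a1, Slc2a4 and Eno3 had the smallest p. Their adjusted p-values were 0.0621, 0.094 and 0.0986. The members' median of -0.16 stands beside -0.20 for the 7 cardiomyocyte markers, all 7 negative and 1 at an unadjusted p under 0.05. Other marker medians were -0.21 for endothelial, -0.21 for fibroblast, -0.75 for smooth muscle and pericyte and -2.61 for atrial markers. They were -0.60 for white adipocyte, -0.14 for skeletal muscle and 0.02 for leukocyte markers. The 5 erythroid markers were all positive, with a median of 0.88 and 3 at an unadjusted p under 0.05. The mitochondrial share of TPM was 37.2 to 45.9% in aged western-diet and 34.6 to 36.5% in aged Hap-I hearts. The part of these differences in the result was not tested.

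Ratios of related enzymes within a heart need no scaling between libraries. They can still carry the link of library deviations with transcript length, and no length-corrected ratio was computed. They were added after the values had been seen, for 9 pairs and 54 comparisons, with two-sided exact permutation tests. The Pfkfb2 to Pfkfb1 ratio had medians of 1.43, 1.39 and 0.784 in aged western-diet, aged and adult western-diet Hap-I hearts, against 0.457 in C57 hearts, and every Hap-I heart lay above every C57 heart. The Hk2 to Hk1 ratio was 1.04 to 2.45, 1.2 to 1.89 and 1.47 to 2.05 in these groups, against 2.86 to 3.17 in C57 hearts. The Ldhb to Ldha ratio was 0.368 to 0.909, 0.447 to 0.678 and 0.598 to 0.782, against 0.934 to 1.14. In each of these ratios the Hap-I and C57 hearts did not overlap. The Eno3 to Eno1 ratio separated them too, at 7.26 to 10.5, 8.54 to 9.97 and 7.58 to 9.77, against 11 to 11.6. So did Irs1 to Irs2, both low genes, at 0.868 to 3.06, 0.798 to 1.79 and 0.866 to 2.21, against 0.339 to 0.686. By longest transcript, Pfkfb2 (4505 bases), Ldha (1815), Eno1 (2027) and Irs1 (9144) are longer than Pfkfb1 (2681), Ldhb (1304), Eno3 (1564) and Irs2 (6323). In Hap-I hearts these longer genes were the relatively higher ones, compared with C57. Hk2 (5513), longer than Hk1 (4278), was relatively lower. The part of transcript length in the ratios was not tested. Pfkm to Pfkl was 2.49 to 3.72 in aged western-diet and 4.05 to 5.32 in aged Hap-I hearts. These ranges did not overlap (exact permutation p = 0.0159), but the difference did not pass after adjustment (0.129).

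The phosphorylase ratio divided the hearts otherwise. Pygm to Pygb was 0.753 to 1.03 in aged western-diet and 0.833 to 1.03 in aged Hap-I hearts, 1.24 to 1.40 in adult western-diet Hap-I hearts and 1.00 to 1.19 in C57 hearts, so the adult western-diet hearts were the high ones. Their exact permutation p was 0.0159 against aged western-diet and 0.0286 against aged Hap-I hearts. Slc2a4 to Slc2a1 had its highest median in the same group, 39.8 with a range of 34.4 to 44.6, against 23 to 29.1 in C57 hearts. Of the 54 comparisons, 11 had an exact p under 0.05 and 22 had ranges apart, but 0 passed after Benjamini-Hochberg adjustment over the 54, the lowest adjusted exact p being 0.129. With 4 hearts against 3, the smallest possible exact p is 0.0571. Such floors at each group size nearly fixed the 0 adjusted calls in advance, so they do not show that the ratios are alike.

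**Figure D4:**
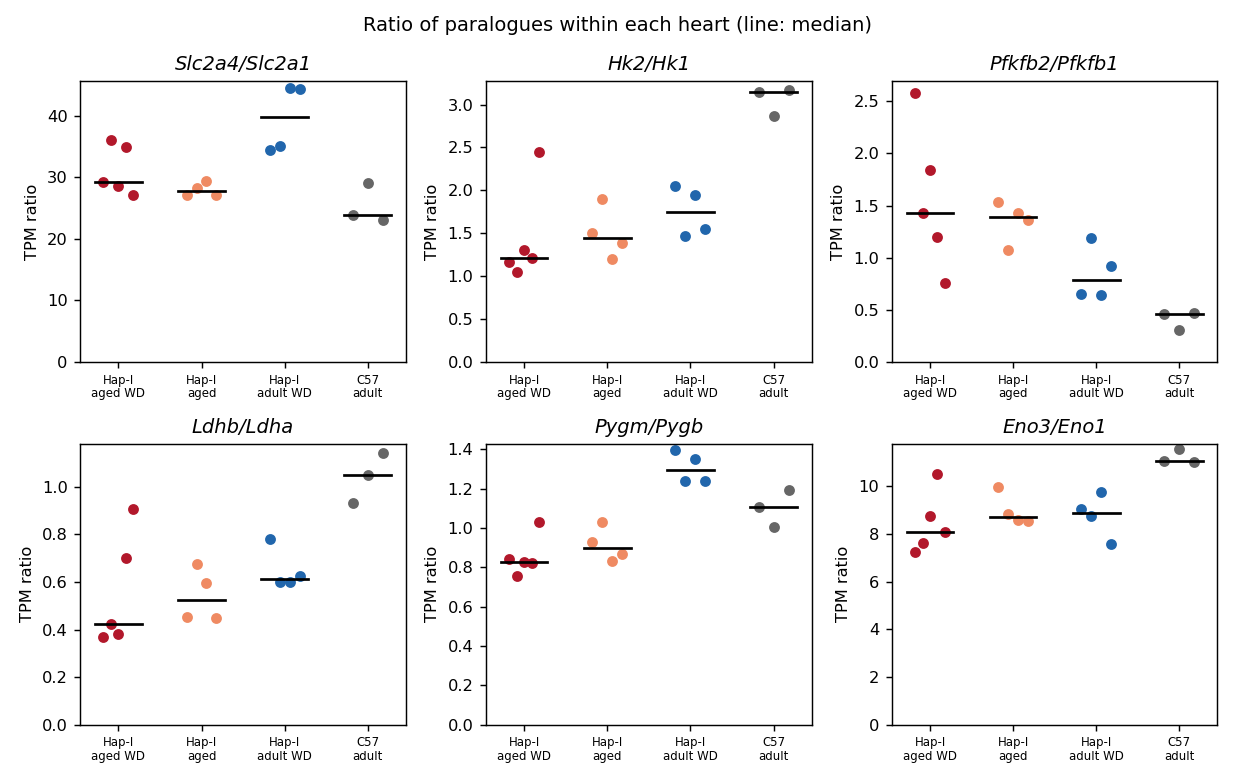
TPM ratio of 6 pairs of related genes within each heart (vertical axis, from 0), 1 dot per heart and a line at the group median. The C57 hearts stand apart from all Hap-I hearts for Hk2/Hk1, Pfkfb2/Pfkfb1, Ldhb/Ldha and Eno3/Eno1, while Pygm/Pygb is highest in adult western-diet Hap-I hearts, at 1.24 to 1.40.

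A wider list of 101 genes around the same pathways held 89 that were tested. In aged western-diet against C57 hearts, where 12.3% of all genes were higher and 9.57% lower, 8 of 32 further insulin pathway genes were higher and 3 lower, and the list's median log2 change was 0.13. Of 11 further glycolysis genes, 2 were higher and 2 lower; of 17 further glycogen genes, 0 and 1; of 15 pentose phosphate and hexosamine genes, 1 and 1; and of 5 further transport genes, 0 and 1. Among 9 glucose-responsive and energy regulators 2 were higher and 0 lower, with a median of 0.38. In aged Hap-I against C57 hearts these regulators had 2 higher and 1 lower and the insulin list 4 and 1, beside 7.17% and 4.06% of all genes. The regulator called lower there was Txnip, at -1.09 ± 0.27 (log2, SE, limma adjusted p = 0.0207). That call was not followed over the alternatives. In adult western-diet against C57 hearts both lists had 0 calls, beside 1.95% higher and 1.5% lower of all genes. Against aged Hap-I hearts, aged western-diet hearts had 0 calls in all 6 lists, with 15 unadjusted p under 0.05 among the 89, beside 15.9% of all genes.

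Phkg1, the catalytic subunit of muscle phosphorylase kinase, which switches glycogen phosphorylase on, was the 1 glycogen gene of this list called in aged western-diet against C57 hearts. It averaged 5.46 scaled TPM in aged western-diet, 7.67 in aged and 7.77 in adult western-diet Hap-I hearts, against 14.1 in C57 hearts. It fell by 1.23 ± 0.20 (log2, SE; adjusted p = 0.00101) in aged western-diet and by 0.96 ± 0.18 (adjusted p = 0.00306) in all Hap-I hearts, both held under every alternative. In aged Hap-I hearts it fell by 0.82 ± 0.21 (adjusted p = 0.0227), which was lost without C57 replicate 1 (0.1) or 3 (0.0699), without aged replicate 1 (0.0511) or 4 (0.0672) and under 4 other alternatives (0.0504 to 0.242). The fall of 0.82 ± 0.21 in adult western-diet hearts (adjusted p = 0.0431) was lost without C57 replicates 1, 2 or 3 (0.183, 0.0525 and 0.119), without adult western-diet replicates 1, 2 or 3 (0.0823, 0.107 and 0.0704) and under 5 other alternatives.

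Pfkfb3, the inducible relative of Pfkfb2, averaged 1.81 scaled TPM in aged western-diet, 2.18 in aged and 1.12 in adult western-diet Hap-I hearts, against 2.85 in C57 hearts. In adult western-diet hearts it fell by 0.86 ± 0.15 (log2, SE; adjusted p = 0.006), a call held in each of the 17 alternatives that kept the gene, which a filter at 5 TPM removed. In aged western-diet hearts it fell by 0.47 ± 0.14 (adjusted p = 0.0261), which was lost without C57 replicate 2 (0.0795) or 3 (0.0997), without aged western-diet replicate 2 (0.0544) and under 5 other alternatives (0.0524 to 0.177). In all Hap-I hearts it fell by 0.54 ± 0.12 (adjusted p = 0.00961), which was lost without C57 replicate 3 (0.0695), without scaling (0.0823) and with the atrial covariate (0.0659). It was 0.59 ± 0.14 higher in aged than in adult western-diet Hap-I hearts (adjusted p = 0.0394). That call was lost when any 1 aged Hap-I heart was left out (0.0854, 0.0664, 0.122 and 0.0954 for replicates 1 to 4), without adult western-diet replicates 1, 2 or 3 (0.0976, 0.115 and 0.0782) and under 4 other alternatives.

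The 4 further genes of the wider list were named by their small p in at least 1 comparison. Galm, which interconverts the forms of glucose, averaged 13.1 scaled TPM in aged western-diet Hap-I hearts and 8.63 in C57 hearts and rose by 0.55 ± 0.11 (log2, SE; adjusted p = 0.00327), lost only without scaling (0.131). In all Hap-I hearts it rose by 0.39 ± 0.09 (adjusted p = 0.0133), lost under 4 of 26 alternatives, among them without C57 replicate 1 (0.0932) or 3 (0.0966).

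Hif1a, the factor that induces glycolytic genes at low oxygen, averaged 9.57 scaled TPM in aged western-diet and 11.5 in aged Hap-I hearts, against 7.09 in C57 hearts. It rose by 0.64 ± 0.13 in aged hearts (log2, SE; adjusted p = 0.00713), lost only without scaling (0.0567). It also rose by 0.40 ± 0.12 in aged western-diet hearts (adjusted p = 0.0264) and by 0.45 ± 0.11 in all Hap-I hearts (adjusted p = 0.0103), lost under 8 of 19 and 4 of 26 alternatives. Among these were C57 replicates 1 and 3 left out for both calls, and aged western-diet replicate 3 for the aged western-diet call (adjusted p of 0.0561 to 0.154). Inppl1, a phosphatase that dampens insulin signalling, averaged 33.3 scaled TPM in aged western-diet and 36.5 in aged Hap-I hearts, against 28 in C57 hearts. It rose by 0.37 ± 0.08 in aged hearts (adjusted p = 0.0114), lost without scaling (0.131) and with a length correction (0.113). Its rises of 0.24 ± 0.08 in aged western-diet (adjusted p = 0.0361) and 0.23 ± 0.07 in all Hap-I hearts (adjusted p = 0.0294) were lost under 10 of 19 and 6 of 26 alternatives. Among these were any 1 C57 heart left out for both calls, and aged western-diet replicate 3 or 4 for the aged western-diet call (adjusted p of 0.0606 to 0.132).

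Gsk3b, the kinase that inhibits glycogen synthase, averaged 7.80 scaled TPM in aged western-diet, 6.87 in aged and 4.22 in adult western-diet Hap-I hearts, against 3.39 in C57 hearts. Against C57 it rose by 0.98 ± 0.20 in aged western-diet hearts (log2, SE; adjusted p = 0.00364), lost only without scaling (0.065). It rose by 0.80 ± 0.21 in aged (adjusted p = 0.0226) and by 0.68 ± 0.17 in all Hap-I hearts (adjusted p = 0.0164), lost under 7 of 18 and 5 of 26 alternatives. Among these were C57 replicates 1 and 3 left out for both calls, and aged replicates 3 and 4 for the aged call (adjusted p of 0.0688 to 0.11). Between the western-diet groups it was 0.73 ± 0.18 higher in aged hearts (adjusted p = 0.045). That call was lost without aged western-diet replicate 1 (0.101), 2 (0.0668) or 3 (0.11), without adult western-diet replicate 1 (0.146), 2 (0.084) or 3 (0.111) and under 7 other alternatives (0.0563 to 0.246).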

How the data were processed

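Polyadenylated RNA of 16 mouse hearts was sequenced from stranded libraries, per the labels' protocols. The authors deposited 1 table of TPM per gene, with no counts, per the file headers. The submitters' processing notes name the tools kallisto and DESeq2 and the build GRCm38, without versions; strand and annotation settings are not given in the sources used here. Of 30153 genes, 29732 had a symbol in the annotation used here. The columns summed to 942090 to 959772 TPM. No depth can be had from TPM.

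From the deposited TPM, 11415 genes were kept, each at 1 TPM or more in 3 libraries or more, and divided by median-of-ratios factors (0.682 to 1.24). limma 3.58.1 (R 4.3.3) fitted log2(scaled TPM + 1), pseudocount 1, with 1 mean for each of 4 groups and a variance trend; tests were two-sided with Benjamini-Hochberg adjustment, called under 0.05. Intervals cover 95%. The fit was tested on simulated data. Ratios were tested with scipy 1.17.1. All 32 members are named where called or by group means. Members of the wider lists were named by smallest p, in each comparison that called them. Txnip was named in addition, as the regulator called lower. Members and lists were chosen with earlier results of these data known. Alternatives were no scaling, quantile normalization, pseudocounts of 0.1 and 0.5, no filter or one at 5 TPM, no variance trend, only the groups compared, covariates for Y-linked transcripts and atrial markers, a transcript length correction, and each library left out. Where leaving a library out changed the spread, the other groups still shared it.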

Additional observations from a re-analysis of the deposited data

Results flagged for a closer look

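Within groups of 4 or 5 hearts, 1 sample stood far from the rest, by Dixon's test, for 5 of 96 gene and group pairs; chance alone flags about 1 in 20. Slc2a1 was 4.68 scaled TPM in aged Hap-I replicate 3, beside 5.50 to 5.53 in the other aged Hap-I hearts. In adult western-diet Hap-I replicate 4, Gpi1 was 126 scaled TPM beside 94.2 to 99.1, and Pfkl was 39.0 beside 24.8 to 27.1. Pgk1 was 218 scaled TPM in adult western-diet Hap-I replicate 1, beside 206 to 207. Foxo1 was 1.85 scaled TPM in aged Hap-I replicate 1, beside 2.22 to 2.26.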

How the results depend on the processing

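Of 27 calls of these genes, 7 held under every alternative, 13 held when any 1 heart was left out, and 0 changed direction. Numbers of the 32 genes called follow, with the range over hearts left out. For aged western-diet against aged Hap-I hearts it was 0 (0 to 1), and 1 with quantile normalization. For aged western-diet against adult western-diet hearts it was 2 (0 to 5), with 0 without scaling and in a fit of those groups alone, and 1 with quantile normalization, the atrial covariate or the length correction. For aged against adult western-diet Hap-I hearts it was 2 (1 to 6), and 1 without scaling, with quantile normalization, without a filter or with the Y-linked covariate. Against C57, aged Hap-I hearts had 4 (2 to 4), with 2 without scaling or with the atrial covariate and 9 in a fit of those groups alone. Adult western-diet hearts had 3 (1 to 3), and 1 without scaling or with the Y-linked or atrial covariate. Aged western-diet hearts had 9 (7 to 11), with 3 without scaling, 5 with quantile normalization and 4 with the atrial covariate. All Hap-I hearts had 7 (2 to 7), with 2 without scaling or with the atrial covariate and 4 with quantile normalization. The causes were not tested. The paralogue ratios gave 0 adjusted calls, and 0 to 0 with any heart left out. The group sizes nearly fixed these counts in advance, so they say nothing on stability. Over all genes, calls ranged over alternatives from 4 to 92 (19 as reported) for aged western-diet against aged Hap-I hearts, 5 to 570 (273) for aged western-diet and 38 to 733 (244) for aged against adult western-diet Hap-I hearts. Against C57 they ranged from 614 to 2670 (2496) in aged western-diet, 225 to 2431 (1282) in aged, 68 to 627 (394) in adult western-diet and 383 to 2117 (1795) in all Hap-I hearts. No paired analysis was possible because the labels give no replicate numbers that groups share. Unknown depth and the 3 C57 hearts limit the calls against C57, and shared words limit Irs1 and Pgk1.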
